A study of Mus musculus with 9 samples.

Results

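The genes described here are the ephrins, their Eph receptors and the semaphorins, measured in mouse embryonic fibroblasts of 3 genotypes. Members were taken by name: every gene symbol of the array annotation that begins with Epha, Ephb, Efna or Efnb and ends in a number, or begins with Sema and ends in a number and a letter. This gave 41 of the 22180 genes with a probe set of their own on the array. They are 5 A-type ephrins, 3 B-type ephrins, 9 EphA receptors, 4 EphB receptors and 20 semaphorins, of which 7 belong to class 3, 6 to class 4, 2 to class 5, 4 to class 6 and 1 to class 7. Ephb2 was not analysed here.

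Ephrins and Eph receptors signal where cells touch. A-type ephrins are held to the outer membrane by a lipid anchor, B-type ephrins span the membrane, and binding to an Eph receptor kinase on a neighbouring cell can signal into both cells, commonly ending in repulsion, cell sorting or a change in adhesion. Semaphorins bind plexins, directly or, for most secreted class 3 members, through neuropilins, and are known for steering axons, vessels and migrating cells. Signals of both families reach the cytoskeleton, and fibroblasts express several members of each.

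The study compared 3 lines of embryonic fibroblasts, each under 3 conditions, with 1 Affymetrix MoGene 2.0 array per line and condition, 9 arrays in all. WT cells were labelled STING+/+, SKO cells STING-/- and MyD88KO cells MyD88-/-, the last spelled MyD99KO in the protocol text. STING is the adaptor that relays cytosolic DNA sensing, and MyD88 is an adaptor of Toll-like receptors, among them the receptor of lipopolysaccharide. One culture of each line was labelled mock, which the treatment protocol describes as untreated; whether it received transfection reagent is not stated. Another was transfected with double-stranded DNA, labelled ISD in the titles and called dsDNA here, and the third received lipopolysaccharide (LPS), both for 6 h. The labels do not say how many embryos gave each line or whether littermates were used, so a difference between genotypes is a difference between these lines. All signals are log2 values, and a difference of 1 is 2-fold.

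Sting1, the gene of STING, checked the SKO label: its log2 difference ± SE between SKO and WT was -4.24 ± 0.18 (limma, adjusted p = 0.000179). Myd88 read 6.99, 8.21 and 7.17 in MyD88KO against 7.52, 8.95 and 7.73 in WT (mock, dsDNA, LPS), so the array does not check that label. Array medians lay between 4.42 and 4.46. The mean log2 signal of 15 fibroblast markers was 9.22 to 9.29 on the WT arrays, 9.28 to 9.31 on the SKO arrays and 9.99 to 10.06 on the MyD88KO arrays. In MyD88KO against WT, 4 of those 15 were at least 2-fold higher (Pdgfra, S100a4, Thy1 and Lum), against 1.69% of all tested genes. Of these, Lum read above the median of all values, 4.44, on the MyD88KO mock array only (4.53). At least 2-fold lower were 5 of 12 tested skeletal muscle markers, 2 of 8 endothelial and 2 of 5 epithelial ones, against 1.32% of genes. At any size 12 of 15 fibroblast markers were higher and 1 lower. Lower at any size were also 10 of 12 muscle, 3 of 8 endothelial and 3 of 5 epithelial markers. Among leukocyte markers 2 of 13 were higher, and among 8 neural ones 1 was higher and 1 lower. Over all tested genes 8.69% were higher and 10.8% lower. In SKO against WT, 3 of 13 leukocyte markers were at least 2-fold higher (Adgre1 by 1.68, Lyz2 by 1.23 and Cd53 by 1.05), against 0.319% of genes. Of 12 muscle markers, 3 were at least 2-fold lower, against 0.109% of genes. At any size 5 leukocyte markers were higher (against 1.19% of genes), and 7 muscle markers and 1 neural marker were lower (against 1.13%). The mean of the muscle list was 6.54 to 6.69 in WT, 6.05 to 6.12 in SKO and 5.56 to 5.86 in MyD88KO, and that of the leukocyte list 5.75 to 5.94, 6.34 to 6.48 and 6.05 to 6.18. The endothelial means were 5.25 to 5.34, 5.19 to 5.24 and 4.94 to 5.13, and the epithelial means 5.21 to 5.24, 5.08 to 5.11 and 4.68 to 4.84. Tek, Tie1, Vwf and Cldn5 of the endothelial list, Epcam, Krt14, Cldn7, Esrp1 and Grhl2 of the epithelial list and Ttn of the muscle list stayed below the median on every array. None of 8 tested neural markers was called at 2-fold between either knockout line and WT. Several of these lists thus differed between the genotypes, some higher and some lower than in WT, and their part in the members' differences was not tested. In bulk RNA, fewer cells of a type and less RNA per cell cannot be told apart.

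The promoters shown are those of the 4 members with the lowest adjusted p for the difference between the dsDNA responses, described further down. Each sequence holds the 250 bases before the RefSeq transcript start (build GRCm38.p6), 5′ to 3′ on the gene's own strand, with bases that match the TEAD motif GGAATG on either strand in capitals. For Epha2 the window is chr4:141300971-141301220 (plus strand), for Efna4 chr3:89338029-89338278 (minus), for Efnb2 chr8:8661243-8661492 (minus) and for Efna5 chr17:62881318-62881567 (minus).
Epha2: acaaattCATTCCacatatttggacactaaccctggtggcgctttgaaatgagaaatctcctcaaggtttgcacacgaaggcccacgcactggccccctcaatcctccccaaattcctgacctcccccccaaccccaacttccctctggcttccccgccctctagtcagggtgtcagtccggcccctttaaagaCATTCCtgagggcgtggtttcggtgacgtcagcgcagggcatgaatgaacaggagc
Efna4: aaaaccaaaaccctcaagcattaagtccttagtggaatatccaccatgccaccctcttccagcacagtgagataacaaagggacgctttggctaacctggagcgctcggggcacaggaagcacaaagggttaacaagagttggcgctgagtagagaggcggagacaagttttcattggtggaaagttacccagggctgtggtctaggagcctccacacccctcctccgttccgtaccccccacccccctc
Efnb2: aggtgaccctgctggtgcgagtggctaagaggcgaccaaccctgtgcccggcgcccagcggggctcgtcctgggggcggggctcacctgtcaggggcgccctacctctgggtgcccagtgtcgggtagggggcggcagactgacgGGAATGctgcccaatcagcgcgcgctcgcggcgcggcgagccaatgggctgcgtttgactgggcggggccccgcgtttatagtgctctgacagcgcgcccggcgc
Efna5: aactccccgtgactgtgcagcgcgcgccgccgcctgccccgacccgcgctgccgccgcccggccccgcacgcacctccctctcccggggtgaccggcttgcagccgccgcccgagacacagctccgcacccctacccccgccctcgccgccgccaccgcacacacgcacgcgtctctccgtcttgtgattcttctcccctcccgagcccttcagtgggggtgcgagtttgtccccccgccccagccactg

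Other motifs were searched on both strands of the same windows: the AP-1 motif TGANTCA, the interferon-response core (GAAA, any 2 bases, GAAA), the NF-kB motif (GGGA, any 2 bases, TTCC) and the E-box CACGTG. None of these letters occurred in the windows of Epha2, Efna4, Efnb2, Efna5, Epha4 or Efnb1. Epha2 held the TEAD motif at 243 to 238 and at 56 to 51 bases before its start, and Efnb2 held it at 105 to 100. Of the 41 members, 37 had a window in the RefSeq table, 50 windows in all. The TEAD motif occurred in 5 of those 50 (10%) against 12.6% of all 32851 windows, the AP-1 motif in 3 (6%) against 6.75%, the E-box in 3 (6%) against 6.02%, the interferon-response core in 1 (2%) against 2.98% and the NF-kB motif in 0 against 1.21%. Member windows had a median GC content of 63.6% and 15 CpG dinucleotides, against 52.4% and 6 over all windows. The Epha2 and Efna4 windows, with 55.6% and 54.4% GC and 9 and 7 CpG, were poorer in both than the Efnb2 window (72%, 27 CpG) and the Efna5 window (74.8%, 32 CpG). A match describes letters in a window and is no evidence of binding.

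A gene was tested where its signal reached the median of all probe set values, 4.44, on at least 1 array. That held for 39 of the 41 members and for 14737 of all genes. Epha5, at 3.56 to 4.27, and Epha6, at 3.41 to 3.76, were below the median on every array and were not tested. At or above the median on all 9 arrays were 33 members, among them all 8 ephrins. The other 6 reached it on some arrays only: Sema4f and Sema4g on 7, Sema3d and Sema6b on 6, Sema4d on 5 and Ephb1 on 1. In each class the member with the highest mean was Epha4 among EphA receptors, Ephb4 among EphB receptors, Efna5 and Efnb2 among A-type and B-type ephrins, and Sema3e, Sema4c, Sema5a, Sema6a and Sema7a among semaphorins of classes 3 to 7. Because probe sets differ in brightness, those levels do not rank the transcripts.

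**Figure D1:**
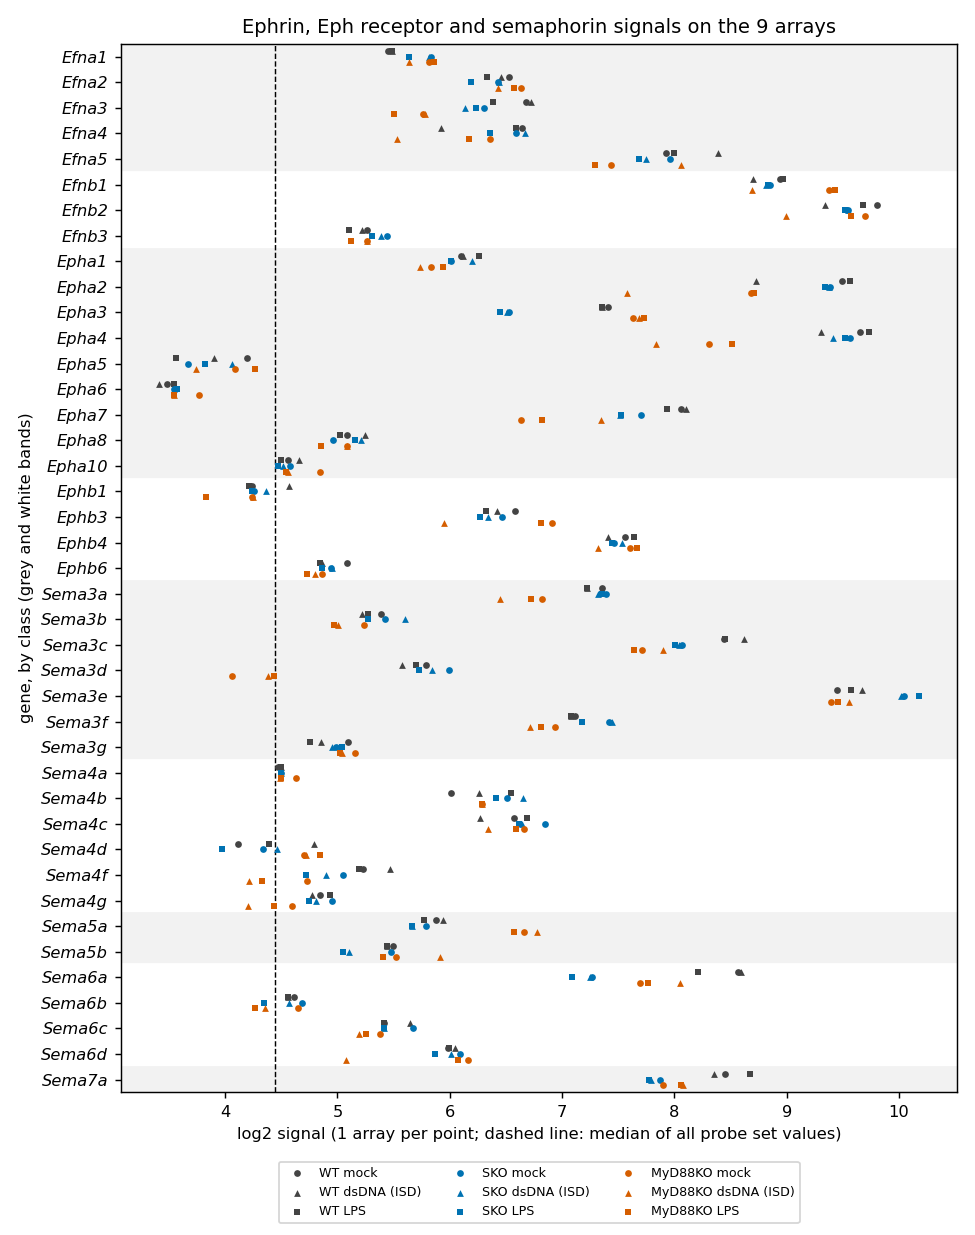
Log2 signal (x axis) of the 41 ephrin, Eph receptor and semaphorin genes (y axis, grey and white bands by class) on the 9 arrays, 1 point per array, coloured by genotype and shaped by treatment; the dashed line is the median of all values, 4.44. Epha5 and Epha6 lie left of the line on every array, and the MyD88KO points of Epha4 (7.84 to 8.51) lie apart from the other genotypes.

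Between the STING-deficient and the WT line, few members differed. Sema6a was the 1 member lower by 2-fold or more (1 of 39, 2.56%, against 0.427% of all tested genes), and none was higher (against 0.319%). Genes lower by this rule were 0.109% of those tested. At any size 5 members passed (12.8%, against 2.32% of genes): Sema6a, Epha3, Sema7a and Sema3c were lower in SKO (10.3%, against 1.13% of genes) and Sema3e was higher (2.56%, against 1.19%). None of the 8 ephrins and none of the 4 EphB receptors passed. The genotype fit takes treatment into account, so its error is the departure from parallel profiles over the 3 treatments. Each genotype has 3 arrays under 3 conditions and no repeat of any condition.

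Sema6a is a transmembrane semaphorin that binds A-type plexins. It read 8.57, 8.59 and 8.21 in WT (mock, dsDNA, LPS), 7.26, 7.25 and 7.09 in SKO and 7.69, 8.05 and 7.77 in MyD88KO. The 3 genotypes did not overlap, with WT highest, MyD88KO between and SKO lowest. The difference from WT was -1.26 ± 0.09 in SKO (SE, adjusted p = 0.00187) and -0.62 ± 0.09 in MyD88KO (adjusted p = 0.00351). Sema6a lies on chromosome 18, as Sting1 does, with 152 annotated protein-coding genes between them.

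Epha3, a receptor of A-type ephrins, read 7.41, 7.36 and 7.36 in WT, 6.53, 6.51 and 6.45 in SKO and 7.63, 7.68 and 7.73 in MyD88KO. Its arrays varied little within a genotype, and the 3 genotypes did not overlap. Its difference from WT was -0.88 ± 0.06 in SKO (adjusted p = 0.00177) and 0.30 ± 0.06 in MyD88KO (adjusted p = 0.015). Sema7a, a lipid-anchored semaphorin that also binds integrins, read 8.45, 8.36 and 8.67 in WT, 7.87, 7.79 and 7.78 in SKO and 7.89, 8.08 and 8.06 in MyD88KO. Every array of both knockout lines was below every WT array. The difference from WT was -0.68 ± 0.09 in SKO (adjusted p = 0.0125) and -0.48 ± 0.09 in MyD88KO (adjusted p = 0.00861).

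Among secreted class 3 semaphorins, Sema3e and Sema3c passed in SKO in opposite directions. Sema3e, which can bind plexin-D1 without a neuropilin, read 9.45, 9.67 and 9.57 in WT, 10.04, 10.02 and 10.18 in SKO and 9.39, 9.56 and 9.46 in MyD88KO. The SKO arrays were above all others, by 0.52 ± 0.06 against WT (adjusted p = 0.00951). Sema3c, a neuropilin ligand known from heart outflow development, read 8.44, 8.62 and 8.45 in WT, 8.07, 8.04 and 8.004 in SKO and 7.71, 7.90 and 7.64 in MyD88KO. Here WT was highest and MyD88KO lowest, with no overlap. The SKO difference was -0.46 ± 0.06 (adjusted p = 0.0168).

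Over all tested members the median SKO difference was -0.04, against 0.00 over all tested genes. The SKO and WT arrays did not overlap for 11 of 39 members (28.2%), and this held for 21.8% of genes. SKO was the higher line for 4 of them (10.3%, against 10.7% of genes) and the lower line for 7 (17.9%, against 11.1%). Efna1, Efna3, Efnb3, Epha7, Sema3f and Sema4f were among those 11 without passing the test.

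In the MyD88-deficient line more members differed from WT, most of them lower. At 2-fold or more 3 of 39 members were called (7.69%, against 3.01% of genes), all lower: the receptors Epha4 and Epha7 and the secreted Sema3d. Genes lower by that rule were 1.32% of those tested and genes higher 1.69%. At any size 14 members passed (35.9%, against 19.5% of genes), 12 lower and 2 higher. The lower share was 30.8% of members against 10.8% of genes, and the higher share 5.13% against 8.69%. Over the members the median difference was -0.19, against -0.01 over all tested genes.

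EphA receptors made up 5 of the 14. Epha4, which binds both A-type and B-type ephrins, read 9.65, 9.30 and 9.73 in WT, 9.56, 9.41 and 9.52 in SKO and 8.31, 7.84 and 8.51 in MyD88KO. All MyD88KO arrays were below the lowest array of the other lines. The difference from WT was -1.34 ± 0.10 (adjusted p = 0.000122). Epha7, another receptor of A-type ephrins, read 8.06, 8.10 and 7.93 in WT, 7.70, 7.51 and 7.52 in SKO and 6.63, 7.34 and 6.82 in MyD88KO. It too was lowest in MyD88KO without overlap (-1.10 ± 0.15 against WT, adjusted p = 0.00245), and its dsDNA array was the highest of the MyD88KO arrays. Without the MyD88KO mock array the Epha7 difference was -0.91, short of 2-fold.

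Epha2, an EphA receptor well known from epithelial and tumour cells, differed from WT by -0.94 ± 0.21 over the treatments (adjusted p = 0.0198). Its WT signals of 9.49, 8.73 and 9.56 and MyD88KO signals of 8.68, 7.58 and 8.71 did not overlap, although the WT dsDNA array lay next to the MyD88KO mock and LPS arrays. Epha1 was lower too (-0.32 ± 0.09, adjusted p = 0.0475), and Epha3, given above, was the 1 EphA receptor that was higher. Epha8 and Epha10 did not pass, and neither did any of the 4 EphB receptors. Ephb4, the receptor of ephrin-B2, read 7.41 to 7.64 in WT and 7.32 to 7.67 in MyD88KO, ranges that overlap.

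Of the ephrins, Efna3 alone passed between MyD88KO and WT. It read 6.68, 6.73 and 6.38 in WT, 6.30, 6.14 and 6.23 in SKO and 5.76, 5.78 and 5.51 in MyD88KO. The genotypes followed each other without overlap, WT highest and MyD88KO lowest, and the MyD88KO difference was -0.92 ± 0.09 (adjusted p = 0.000613). Its chromosome 3 neighbours Efna1 and Efna4, with no other protein-coding gene in between, did not pass. Efna1 read 5.45 to 5.49 in WT and 5.64 to 5.86 in MyD88KO, higher on every array.

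Among class 3 semaphorins, Sema3d, Sema3c and Sema3a were lower in MyD88KO than in WT. Sema3d read 5.79, 5.58 and 5.70 in WT, 5.99, 5.84 and 5.73 in SKO and 4.06, 4.38 and 4.43 in MyD88KO. Its MyD88KO signals were all below the median of all values, which limits how well the size of its difference is known (-1.40 ± 0.13, adjusted p = 0.000413). For Sema3c the difference was -0.75 ± 0.06 (adjusted p = 0.000271). Sema3a, the classic axon-collapsing ligand of neuropilin-1, read 7.35, 7.23 and 7.23 in WT, 7.39, 7.32 and 7.36 in SKO and 6.82, 6.45 and 6.72 in MyD88KO. Its MyD88KO arrays lay below all others (-0.60 ± 0.08 against WT, adjusted p = 0.0017). Sema3d, Sema3a, Sema3e and Sema3c share chromosome 5, with 0, 3 and 15 protein-coding genes between consecutive pairs, and Sema3e did not pass here.

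Sema5a, a transmembrane semaphorin with thrombospondin-type repeats, went the other way. It read 5.88, 5.94 and 5.77 in WT, 5.78, 5.67 and 5.66 in SKO and 6.66, 6.78 and 6.57 in MyD88KO. MyD88KO was highest without overlap, by 0.81 ± 0.08 (adjusted p = 0.000388). In class 4, Sema4f (-0.87 ± 0.14, adjusted p = 0.00457) and Sema4g (-0.44 ± 0.10, adjusted p = 0.0238) were lower, and both fell short of the median on 2 of the 3 MyD88KO arrays. Sema4c, a ligand of plexin-B2, read 6.27 to 6.68 in WT and 6.34 to 6.66 in MyD88KO and did not pass.

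**Figure D2:**
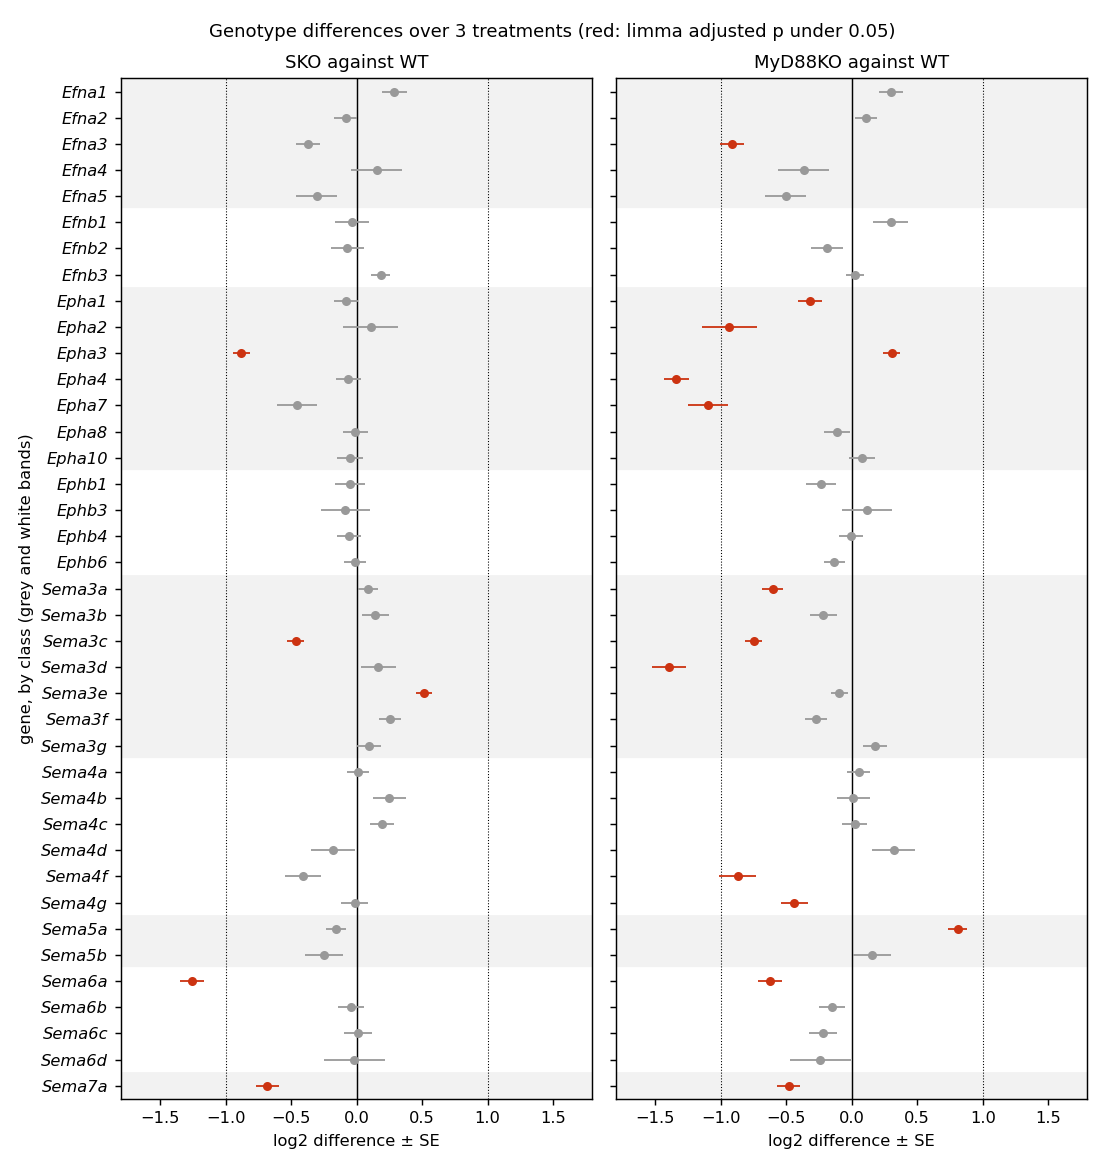
Log2 difference from WT (x axis, point ± SE, limma genotype fit over 9 arrays) of the 39 tested members (y axis, by class) in SKO (left) and MyD88KO (right); red marks an adjusted p under 0.05 and dotted lines mark 2-fold. Sema6a is the 1 red point past 2-fold in SKO, and Epha4, Epha7 and Sema3d are those in MyD88KO.

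Counting arrays, WT and MyD88KO did not overlap for 17 of 39 members (43.6%), against 31.4% of genes. Of those, 14 were lower in MyD88KO (35.9%, against 17.3% of genes) and 3 higher (7.69%, against 14.1%). The lower members were 4 EphA receptors, 9 semaphorins and 1 ephrin, Efna3.

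Between the 2 knockout lines, 4 members were called at 2-fold or more (10.3%, against 3.72% of genes). Epha3 was 1.18 ± 0.06 higher in MyD88KO (adjusted p = 3.04e-05), in a direction that 1.98% of genes took. Lower in MyD88KO, as 1.74% of genes were, were Sema3d (-1.56 ± 0.13, adjusted p = 2e-04), Epha4 (-1.28 ± 0.10, adjusted p = 0.000126) and Epha2 (-1.04 ± 0.21, adjusted p = 0.00983). Without the SKO or the MyD88KO dsDNA array the Epha2 difference was -0.72 or -0.80, short of 2-fold. These comparisons share their arrays with those against WT and are no separate evidence for a gene. At any size 15 members passed (38.5%, against 26.6% of genes), 12 lower (30.8%, against 14.1%) and 3 higher (7.69%, against 12.5%). Class 3 semaphorins supplied 6 of the 12 lower members, Sema3g being the 1 of 7 that did not pass. Arrays of the knockout lines did not overlap for 21 members (53.8%), against 38.9% of genes. MyD88KO was lower for 16 (41%, against 21.3%) and higher for 5 (12.8%, against 17.6%).

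Transfected dsDNA was followed by lower signals of several ephrins and Eph receptors in WT and MyD88KO. In the fit, WT and MyD88KO share 1 dsDNA response and SKO has its own. The shared response passed for 6 of 39 members (15.4%, against 7.56% of genes). Epha2, Efna4, Efnb2, Epha4 and Efnb1 fell, 12.8% of members against 2.29% of genes, and Efna5 rose, 2.56% of members against 5.27% of genes. No semaphorin passed, 0 of 20. The fit has 2 residual degrees of freedom, and each genotype contributes 1 dsDNA array and 1 mock array.

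Epha2 read 9.49 with mock and 8.73 with dsDNA in WT, 8.68 and 7.58 in MyD88KO, and 9.38 under both in SKO. With LPS it read 9.56, 8.71 and 9.34 in WT, MyD88KO and SKO, close to mock. Only the dsDNA arrays of WT and MyD88KO stood below the other arrays of their line. The shared response was -0.94 ± 0.09 (adjusted p = 0.00175). Epha4, whose signals are given above, differed between dsDNA and mock by -0.35 in WT, -0.47 in MyD88KO and -0.15 in SKO, the dsDNA array being the lowest of each line. The shared response was -0.42 ± 0.06 (adjusted p = 0.0122), the smallest of the 5 decreases.

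Among the ligands, Efna4, an A-type ephrin, read 6.65 with mock and 5.92 with dsDNA in WT, 6.36 and 5.53 in MyD88KO and 6.59 and 6.67 in SKO. The dsDNA array was the lowest of its line in WT and MyD88KO and the highest in SKO. Its shared response was -0.79 ± 0.09 (adjusted p = 0.0045). Efnb2, the arterial ligand of EphB4, read 9.80 and 9.34 in WT, 9.70 and 8.99 in MyD88KO and 9.55 and 9.55 in SKO, a shared response of -0.56 ± 0.08 (adjusted p = 0.00856). The dsDNA array was again the lowest of its line in WT and MyD88KO. Efnb1, an X-linked B-type ephrin, read 8.94 and 8.70 in WT, 9.38 and 8.69 in MyD88KO and 8.85 and 8.82 in SKO. The dsDNA difference was -0.24 in WT and -0.69 in MyD88KO, and the shared response -0.46 ± 0.10 (adjusted p = 0.0482).

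Efna5 was the member that rose. It read 7.92 with mock and 8.39 with dsDNA in WT, 7.43 and 8.06 in MyD88KO, and 7.96 and 7.74 in SKO. The dsDNA array was the highest of its line in WT and MyD88KO and lay between mock and LPS (7.68) in SKO. The shared response was 0.49 ± 0.11 (adjusted p = 0.0438). Within the A-type ephrins, Efna4 and Efna5 thus moved in opposite directions, and Efna1, Efna2 and Efna3 did not pass.

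For all 6 members the difference between dsDNA and mock was larger in MyD88KO than in WT, as it was for 880 of the 1114 genes that passed (79%). Each is from 1 pair of arrays, and this contrast was not tested. Calls of this response rest on few arrays. Without 1 of 5 single arrays (WT LPS, SKO mock, SKO LPS, MyD88KO mock or MyD88KO dsDNA) 1 member passed, Epha2, and under limma's fit without an intensity trend 3 did, Epha2, Efna4 and Efnb2. Without the low-signal filter Efna5 and Efnb1 were lost. Epha2 passed whichever of the 9 arrays was left out, Efna4, Efnb2 and Efnb1 in 4 of the 9 fits, Epha4 in 3 and Efna5 in 2. Besides the 5 arrays named, Efna5 was lost without the WT mock or the WT dsDNA array and Epha4 without the WT dsDNA array.

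**Figure D3:**
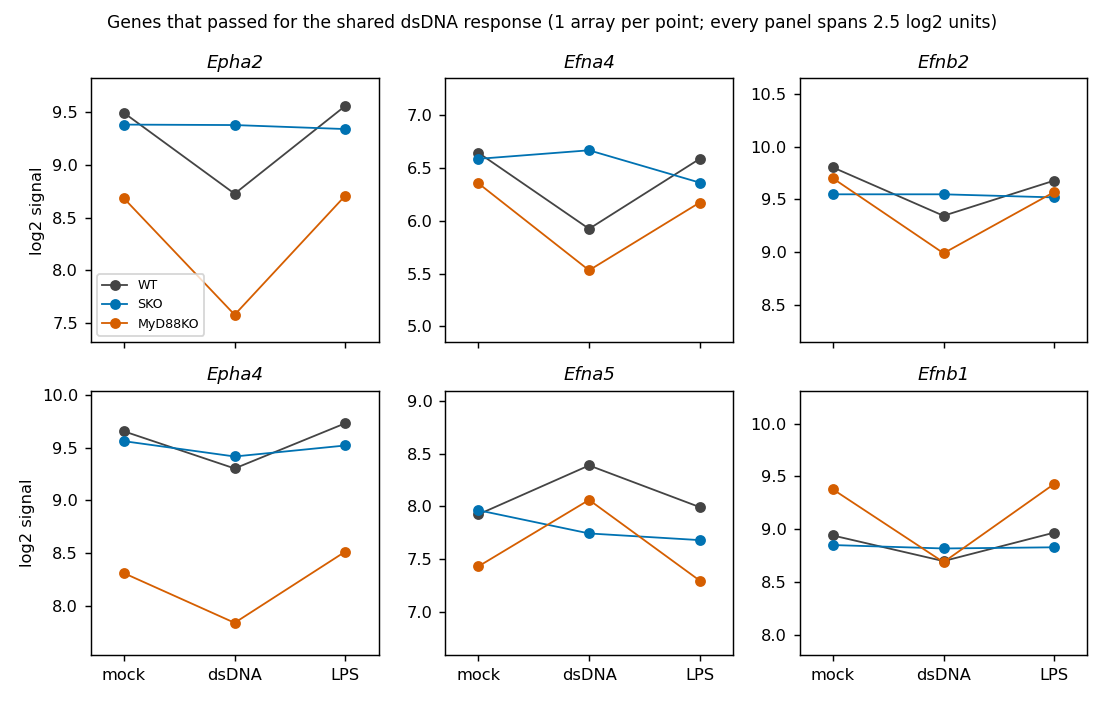
Log2 signal (y axis, the same span in every panel) of the 6 members that passed for the shared dsDNA response, under mock, dsDNA and LPS (x axis), 1 array per point, lines joining arrays of a genotype. The WT and MyD88KO lines dip at dsDNA for Epha2, Efna4, Efnb2, Epha4 and Efnb1 and peak for Efna5, while the SKO lines move by at most 0.22 between mock and dsDNA.

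The dsDNA response of SKO was below the test's threshold for all members and all genes: 0 of 39 and 0 of 14737 (0%) passed in limma. At an unadjusted p under 0.05 there were 0 members and 508 genes, and limma's robust variant also called 0. The lowest p-values among members belonged to Efna3 (-0.23), Epha1 (0.21), Sema4b (0.29) and Epha4 (-0.12), each with an adjusted p of 1. Those are fitted values, which also draw on the LPS arrays of WT and SKO. The plain differences between dsDNA and mock in SKO were -0.165, 0.18, 0.14 and -0.15, in the same order. The response of SKO rests on 1 dsDNA array, and Cxcl10, a known target of DNA sensing, also had an adjusted p of 1 there while reading 5.38 with mock and 7.25 with dsDNA. A count of 0 therefore does not show that SKO did not respond.

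Whether the dsDNA response of WT and MyD88KO differed from that of SKO was tested directly. The shared response minus that of SKO passed for 2 of 39 members (5.13%, against 1.29% of genes), both lower. That direction was taken by 6 of the 14737 tested genes (0.0407%), these 2 members included. Higher were 0 members and 1.25% of genes. The difference was -0.94 ± 0.14 for Epha2 (adjusted p = 0.0334) and -0.91 ± 0.15 for Efna4 (adjusted p = 0.0494). For Efnb2 it was -0.52 ± 0.13 (adjusted p = 0.162) and for Efna5 0.61 ± 0.17 (adjusted p = 0.243), short of the threshold. No member passed when the low-signal filter or the intensity trend was left out, or when any 1 of the same 5 arrays was, and 1 passed without the WT mock or the WT dsDNA array. Efna4 alone was lost with a filter asking for 3 arrays (adjusted p = 0.052). The 2 called differences are therefore close to the limit of this design.

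Several members moved most on 1 dsDNA array. At 2-fold or more from mock, there were 0 members in WT (0 of 39, against 2.04% of genes) or SKO (0 of 38, against 0.15%), and 2 in MyD88KO (2 of 37, 5.41%, against 3.68%), both lower (against 0.371% of genes). Those were Epha2, which also read lower with dsDNA in WT (-0.77), and Sema6d, a transmembrane semaphorin that binds plexin-A1. Sema6d read 6.16 with mock, 5.07 with dsDNA and 6.07 with LPS in MyD88KO, and 5.87 to 6.09 on the 6 arrays of the other lines. The MyD88KO dsDNA array was the low one, and the shared response of -0.50 ± 0.24 did not pass (adjusted p = 0.295).

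Ephb3 had the same shape. It read 6.91, 5.95 and 6.81 in MyD88KO against 6.27 to 6.58 elsewhere, and its shared response of -0.52 ± 0.18 did not pass (adjusted p = 0.16). Epha7 read 0.72 higher with dsDNA than mock in MyD88KO and 0.04 higher in WT. Sema4d, a ligand of plexin-B1, read 4.12 with mock and 4.80 with dsDNA in WT and 4.70 and 4.72 in MyD88KO, so its WT mock signal was below the median of all values. These differences were each on 1 array and have no replicate.

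Of the remaining members, Sema3e (0.20, adjusted p = 0.0861), Sema4c (-0.35, adjusted p = 0.117) and Ephb4 (-0.23, adjusted p = 0.167) came next. Across all members, dsDNA read below mock in both WT and MyD88KO for 16 of 39 (41.0%, against 35.4% of genes) and above in both for 9 (23.1%, against 27.2%). The median dsDNA difference was -0.05 in WT, -0.04 in SKO and -0.18 in MyD88KO, where the median of genes was -0.03.

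LPS was followed by no member change that passed. For the response shared by WT and SKO, 0 of 39 members passed in limma, against 0.332% of genes (49 genes, and 4 to 52 with 1 array left out; 12 or fewer without the WT dsDNA, WT LPS, SKO mock, SKO LPS, MyD88KO mock or MyD88KO dsDNA array). At an unadjusted p under 0.05 there were 1 of 39 members and 808 of 14737 genes, and the robust variant called 0 members. The lowest p-values belonged to Efna2 (-0.24 ± 0.09, adjusted p = 0.884), Sema6a (-0.22 ± 0.10, adjusted p = 0.906), Sema3e (0.12 ± 0.05, adjusted p = 0.906) and Efna3 (-0.20 ± 0.10, adjusted p = 0.922). Efna2 read 6.53 with mock and 6.33 with LPS in WT and 6.43 and 6.19 in SKO, lower with LPS in both.

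For the LPS response of MyD88KO, 0 members passed against 0.0746% of genes (11 genes). At an unadjusted p under 0.05 there were 1 of 39 members and 1043 of 14737 genes. The 11 genes became 29 without the WT mock array, 4 without the WT LPS, SKO mock or SKO LPS array and 0 without the WT dsDNA, MyD88KO mock or MyD88KO dsDNA array. Epha4 (0.23 ± 0.09, adjusted p = 0.681), Sema6b (-0.33, adjusted p = 0.748), Sema3b (-0.26, adjusted p = 0.748) and Ephb1 (-0.33, adjusted p = 0.761) had the lowest p-values. The difference between the LPS responses passed for 0 members and 0 genes (0%) in limma, with 0 members and 765 genes at an unadjusted p under 0.05. Its lowest members were Epha4 (-0.22 ± 0.10, adjusted p = 0.869), Ephb3 (-0.45, adjusted p = 0.875), Sema6a (-0.22, adjusted p = 0.88) and Efna2 (-0.20, adjusted p = 0.88).

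No member reached 2-fold between LPS and mock in WT, SKO or MyD88KO (0 of 37 in each, against 0.936%, 0.551% and 0.652% of genes). Among the tested members the largest LPS difference in WT was that of Sema4b, which read 6.02 with mock and 6.54 with LPS. In SKO, LPS read below mock for 32 of 37 members, with a median of -0.12, where 54.4% of genes read below mock. The SKO dsDNA array read below the same mock array for 26 of 38 members, against 45.9% of genes. LPS read below mock for 21 of 37 members in WT (against 44.9% of genes) and for 24 of 37 in MyD88KO (against 44.2%). Each count is from 1 pair of arrays and has no test. Median LPS differences were -0.05 in WT and -0.10 in MyD88KO, where the medians of genes were 0.00 and 0.01.

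**Figure D4:**
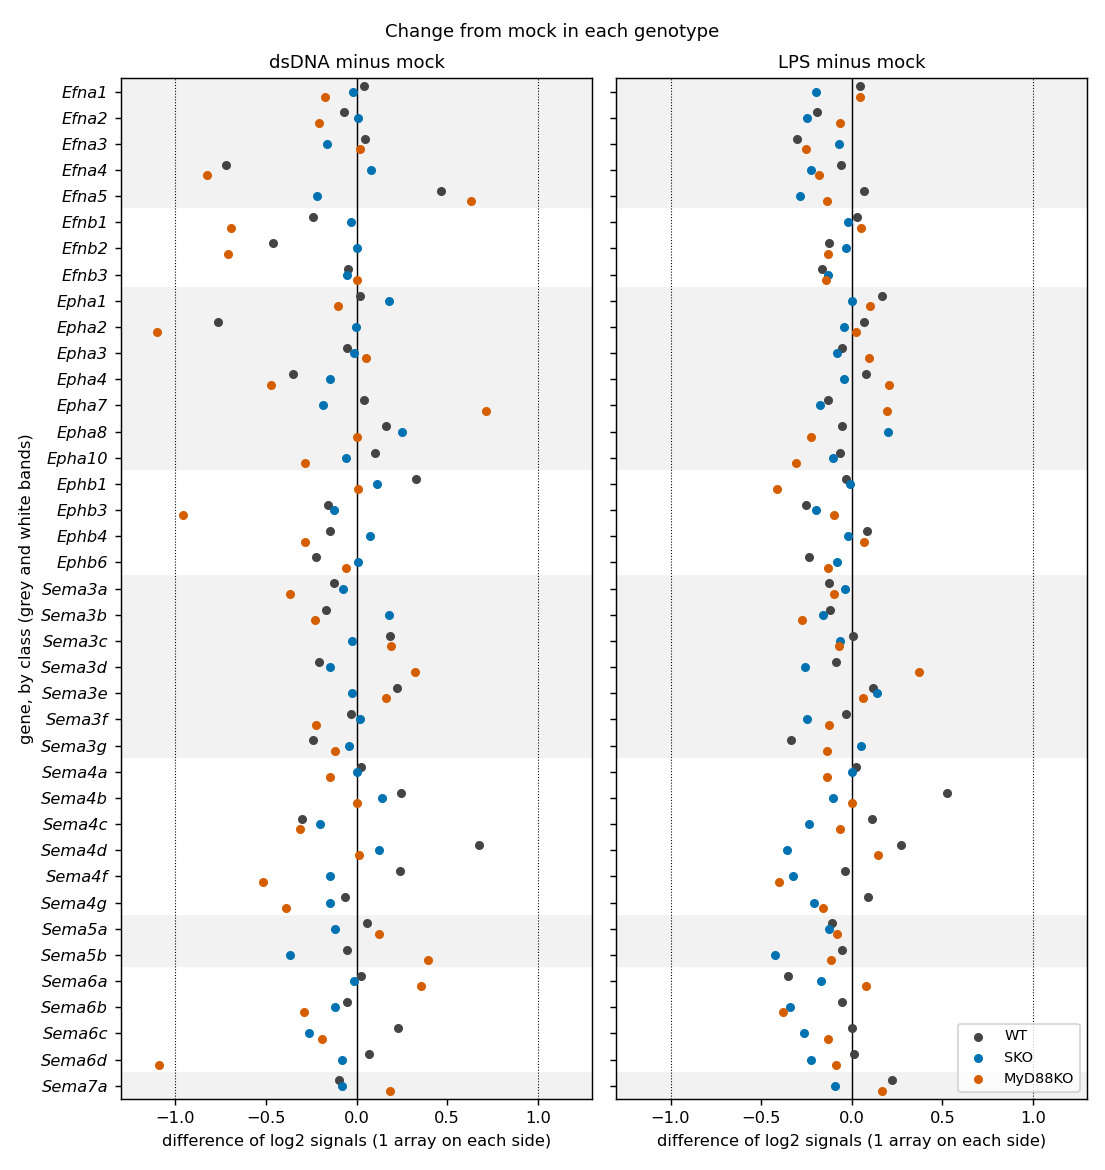
Difference of log2 signals from mock (x axis, 1 array on each side) after dsDNA (left) and LPS (right) for the 39 tested members (y axis, by class) in WT, SKO and MyD88KO; dotted lines mark 2-fold. With dsDNA, Epha2 and Sema6d in MyD88KO pass the 2-fold line (-1.10 and -1.09), and with LPS no point does.

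The partners of these ligands and receptors were examined in 3 lists: 11 plexins and neuropilins, 22 measured semaphorin co-receptors and signalling genes, and 25 Eph and ephrin signalling genes. In the shared dsDNA response 7 of these 58 genes passed (against 7.56% of all tested genes), 2 higher (against 5.27%) and 5 lower (against 2.29%): 1 higher and 1 lower of the plexins and neuropilins, 1 and 2 of the second list, and 0 and 2 of the third. List medians were 0.02, -0.08 and -0.02, against -0.03 over all tested genes.

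Plxna2, the plexin-A2 receptor of Sema6a, read 6.54 with mock and 7.51 with dsDNA in WT, 6.43 and 7.88 in MyD88KO and 6.14 and 6.16 in SKO. The 2 dsDNA arrays of WT and MyD88KO were above all other arrays. Its shared response was 1.20 ± 0.12 (adjusted p = 0.00266), and its difference from SKO, 1.17 ± 0.20, did not pass (adjusted p = 0.0566). Nrp1, the neuropilin-1 co-receptor of Sema3a, read 11.17 and 10.66 in WT, 10.66 and 9.76 in MyD88KO and 10.90 and 10.77 in SKO. It fell by 0.67 ± 0.10 (adjusted p = 0.0111), and its difference from SKO did not pass (adjusted p = 0.354).

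Crmp1 and Dpysl3, members of the collapsin response mediator family that acts downstream of Sema3a, fell by 0.61 ± 0.09 (adjusted p = 0.013) and 0.22 ± 0.04 (adjusted p = 0.0292). Of the Eph signalling list, Abl1, a tyrosine kinase, fell by 0.77 ± 0.10 (adjusted p = 0.00736) and Inppl1, the phosphatase SHIP2, by 0.35 ± 0.07 (adjusted p = 0.0332). None of the 58 genes passed for the difference between the dsDNA responses or in an LPS comparison.

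**Figure D5:**
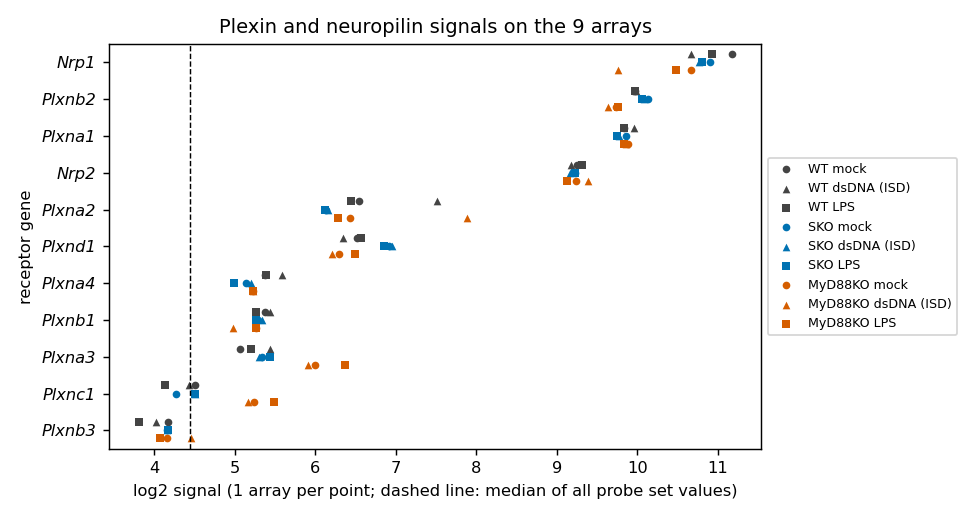
Log2 signal (x axis) of the 11 plexin and neuropilin genes (y axis) on the 9 arrays, 1 point per array, with the median of all values dashed. The dsDNA arrays of WT and MyD88KO stand above the other arrays for Plxna2 (7.51 and 7.88). For Nrp1 the dsDNA array is the lowest of its line in WT (10.66), MyD88KO (9.76) and also SKO (10.77).

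Between genotypes, none of the 58 partner genes was called at 2-fold in SKO against WT, against 0.427% of all tested genes. At any size Havcr2 was higher and Grb10 lower, against 1.19% and 1.13% of genes. In MyD88KO against WT, Crmp1 alone was called, with a difference of -1.23 ± 0.14 (adjusted p = 0.000903), in a direction that 1.32% of genes took. At any size, 2 of 11 plexins and neuropilins were higher (Plxna3 by 0.86 and Plxnc1 by 0.94) and 2 lower (Nrp1 and Plxnb2), as were 6 and 4 of 22 co-receptor and signalling genes and 2 and 0 of 25 Eph signalling genes, against 8.69% and 10.8% of all tested genes. Against SKO, MyD88KO was at least 2-fold lower for Crmp1 (-1.61 ± 0.14, adjusted p = 0.000221) and for Havcr2 (-1.25 ± 0.06, adjusted p = 1.87e-05), which encodes the TIM-3 receptor. Genes lower by that rule were 1.74% of those tested. At any size 2 plexins and neuropilins were higher than in SKO and 3 lower. The second list had 7 higher and 5 lower and the third 3 and 0, against 12.5% and 14.1% of genes.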

How the data were processed

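RNA of 9 cultures was hybridised to Affymetrix MoGene 2.0 arrays, 1 per genotype and treatment. The authors deposited log2 signals per probe set, made with Affymetrix Expression Console 1.3.1.187 per the submitters' processing notes; how signals were summarised and normalised is not stated in the labels. Of 41345 probe sets, 23521 had 1 gene symbol, 1814 several and 16010 none. Each of 22180 genes was represented by the brightest of its probe sets (mean of 9 arrays). Of the members, Ephb1 alone had more than 1 probe set.

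Tests used limma 3.58.1 (R 4.3.3; lmFit, eBayes with an intensity trend), with Benjamini-Hochberg adjustment over 14737 genes. The genotype fit has genotype and treatment terms (4 residual degrees of freedom; called at adjusted p under 0.05 and 2-fold). The response fit has genotype levels, a dsDNA response shared by WT and MyD88KO, one of SKO, an LPS response shared by WT and SKO and one of MyD88KO (2 residual degrees of freedom; called at adjusted p under 0.05). No condition was repeated within a genotype, so the error behind each p-value is the departure from these models, moderated over genes by eBayes.

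The gene families whose members are described, the lists and the tests were chosen with earlier results of these data known. Named were all called members, the 4 with the lowest adjusted p where fewer than 4 were called, the brightest of each class, members 2-fold from mock on 1 array, and the called partner genes, up to 6 per comparison, of which 1 is not reported here, and in addition Inppl1. Epha7, Ephb3, Sema4d, Sema4b and the genes named beside counts were chosen after their values were seen. Alternatives covered the low-signal filter, quantile scaling, the probe set rule, limma's variance settings, the genotype levels of the response fit and leaving out each array.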

Additional observations from a re-analysis of the deposited data

Results flagged for a closer look

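The dsDNA response of 2 members differed between SKO and the other lines by a test of the difference itself. For Epha2 the shared response of WT and MyD88KO minus that of SKO was -0.94 (adjusted p = 0.0334), and for Efna4 it was -0.91 (adjusted p = 0.0494). Both rest on 1 dsDNA and 1 mock array per genotype and, through the fit, on the LPS arrays of WT and SKO. An earlier analysis of the same arrays had already shown both differences, so they are no independent support.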

How the results depend on the processing

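No paired analysis was possible because each genotype and treatment has 1 array and every label carries the number 1. The count of members passing for the shared dsDNA response was 6, went to 3 without the intensity trend, and ran from 1 to 7 when each array was left out. For the difference between dsDNA responses the count was 2. It was 0 without a low-signal filter, 1 with a filter asking for 3 arrays and 0 without the intensity trend, and ran from 0 to 2 when each array was left out (1 without the WT mock or the WT dsDNA array). Member counts for the genotype comparisons stayed within 1.5 times of those reported: with an array left out they ran from 1 to 1 for SKO against WT, 3 to 4 for MyD88KO against WT and 3 to 5 for MyD88KO against SKO. Member counts for LPS stayed at 0 in every alternative that could be fitted. No direction reversed. Over all genes, the shared dsDNA count went from 1114 to 638 without the trend and to 270 at the lowest with an array left out, and the dsDNA difference from 190 to 84 and 14. The count for SKO against WT, 63, ran from 31 to 68 with an array left out (31 without WT mock, 32 without WT dsDNA, 38 without SKO mock). The causes were not tested. The SKO dsDNA response could not be fitted without its dsDNA array, nor the MyD88KO LPS response without its LPS array. Signals near the median of all values limit Sema3d, Sema4d, Sema4f, Sema4g, Sema6b and Ephb1, each below it on some arrays. Sema4a (4.47 to 4.63) and Epha10 (4.47 to 4.85) lay just above it on every array and are limited too.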

Other observations

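Some members carried exactly the same deposited value on several arrays. This held for 15 of 39 tested members (38.5%) on at least 2 arrays and for 7 on at least 3. Among all tested genes it held for 6124 of 14737 (41.6%), and on at least 3 arrays for 2985. Sema4a read 4.49 on 6 arrays, and Sema4b read 6.28 on all 3 MyD88KO arrays, so its lack of response there is a repeated value and not a spread of 0.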
